A study of Mus musculus with 10 samples.

Results

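The proteasome genes were the 41 genes of the deposited table, out of 6147 listed, whose symbol began with Psm, followed by a letter from a to g and a number. They were sorted by role into the core particle (6 Psma and 7 Psmb genes), the base ATPases (6 Psmc genes), the Psmd genes of the base, the lid and their assembly chaperones (13), the activators (4 Psme genes), the inhibitor Psmf1 and the core assembly chaperones (4 Psmg genes). Polyadenylated RNA was sequenced from the neocortex, the layered outer part of the forebrain, of CD1 wild-type mice, an outbred strain, with no other allele or agent in any group. Groups were the stages E12.5, then E14, then E15.5 and E17, in days of gestation, and P0, the day of birth, each with 2 of the 10 libraries; the series text calls the duplicates biological. The labels do not give the animals pooled per library, their sex or their litter. Psma5, Psma8, Psmd2, the inducible catalytic genes Psmb8, Psmb9 and Psmb10, and Psmb11, a subunit of the thymus, are not analysed here.

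The proteasome is the protease that degrades most proteins tagged with ubiquitin in the cytosol and nucleus. Its barrel-shaped core, the 20S particle, is built of rings of alpha and beta subunits, and the beta subunits encoded by Psmb5, Psmb6 and Psmb7 carry the active sites. The 19S cap consists of a base, whose ATPases unfold the substrate and thread it into the core, and a lid, which removes the ubiquitin chain; cap and core together form the 26S proteasome. Other activators open the core without ubiquitin: Psme1 and Psme2 encode the cytosolic PA28 alpha and beta, Psme3 the nuclear PA28 gamma, and Psme4 the nuclear PA200. In developing neurons the proteasome is known for the turnover of cell cycle and axon guidance proteins.

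Values were deposited as TPM, a share of all transcripts corrected for gene length, so genes can be set side by side within a library. Between libraries, a share also moves with the other transcripts. The labels and the table state no number of reads. Replicate libraries correlated across 6048 tested genes with Pearson coefficients between 0.9959 and 0.9989 at 4 stages and 0.9891 at E17, where the replicates were farthest apart; genes are not independent replicates. TPM are shares of a total. The median of the changes of all tested genes from E12.5 to P0 was -0.27 on the log2 scale. Each change over that span is read against this median. The neocortical markers Emx1, Tbr1, Neurod2 and Bcl11b were present in every library, at 51.0 to 177 TPM, 69.3 to 159 TPM, 246 to 657 TPM and 66.2 to 147 TPM. Genes of other tissues were high in the E12.5 and E14 libraries: 3 erythroid genes summed to between 4323 and 4494 TPM at E12.5, between 1880 and 1975 TPM at E14 and at most 9.84 TPM later, with Hbb-bh1 at 0 in both P0 libraries. Likewise 5 collagen and matrix genes of the meninges summed to between 106 and 173 TPM at E12.5 and E14 and at most 6.63 TPM later. Of 13 immune genes only C1qb was listed, at 4.66 to 8.93 TPM, and of 10 vascular genes only Cdh5, at 1.02 to 15.3 TPM. In tissue RNA, fewer cells of a type and less RNA per cell cannot be told apart.

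From E12.5 to P0, 29 of the 41 proteasome genes fell and none rose. The largest falls were those of the nuclear activators Psme4 and Psme3, of the assembly chaperones Psmg2 and Psmd10 and of the base ATPases Psmc2, Psmc4 and Psmc3. The median change was -0.37 on the log2(TPM + 1) scale, against -0.27 over all genes tested, and the members ran from -1.55 to 0.16. The test was limma over all 10 libraries with Benjamini-Hochberg adjustment over 6048 genes at 0.05, by which 51.0% of all genes were called lower and 27.1% higher. All members passed the filter at a mean of 1 TPM. The erythroid and meningeal genes above also differed between these stages, and their part in the changes was not tested. Summed over the members, the share of all TPM was 0.624% ± 0.00151 for E12.5 (SD, 2 libraries), 0.598% ± 0.0150 for E14, 0.553% ± 0.00920 for E15.5, 0.460% ± 0.0419 for E17 and 0.495% ± 0.00329 for P0. Without any overlap, P0 was below E12.5 in 34 members and above it in 3, where 58.4% and 32.5% of all genes did so. Over the 5 stages, limma's F test called 33 of 41, where it called 82.9% of all genes.

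The count of falls depended on the scaling. When libraries were rescaled by the median of ratios, so that the median of all genes lay near 0, 10 members fell and 6 rose, against 37.7% and 37.9% of all genes. Quantile normalization gave 22 falls and 4 rises, against 40% and 36.6% of all genes. The 10 that fell under both and as deposited were Psmc2, Psmc3, Psmc4, Psmc5, Psmd10, Psmd11, Psmd12, Psme3, Psme4 and Psmg2, and these fell under each of the 19 settings tried; 35.4% of all genes fell under all 3 scalings. The 6 that rose under median-of-ratios scaling, Psma3, Psmd5, Psmd9, Psme1, Psmf1 and Psmg3, lay between 0.02 and 0.16 as deposited.

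**Figure D1:**
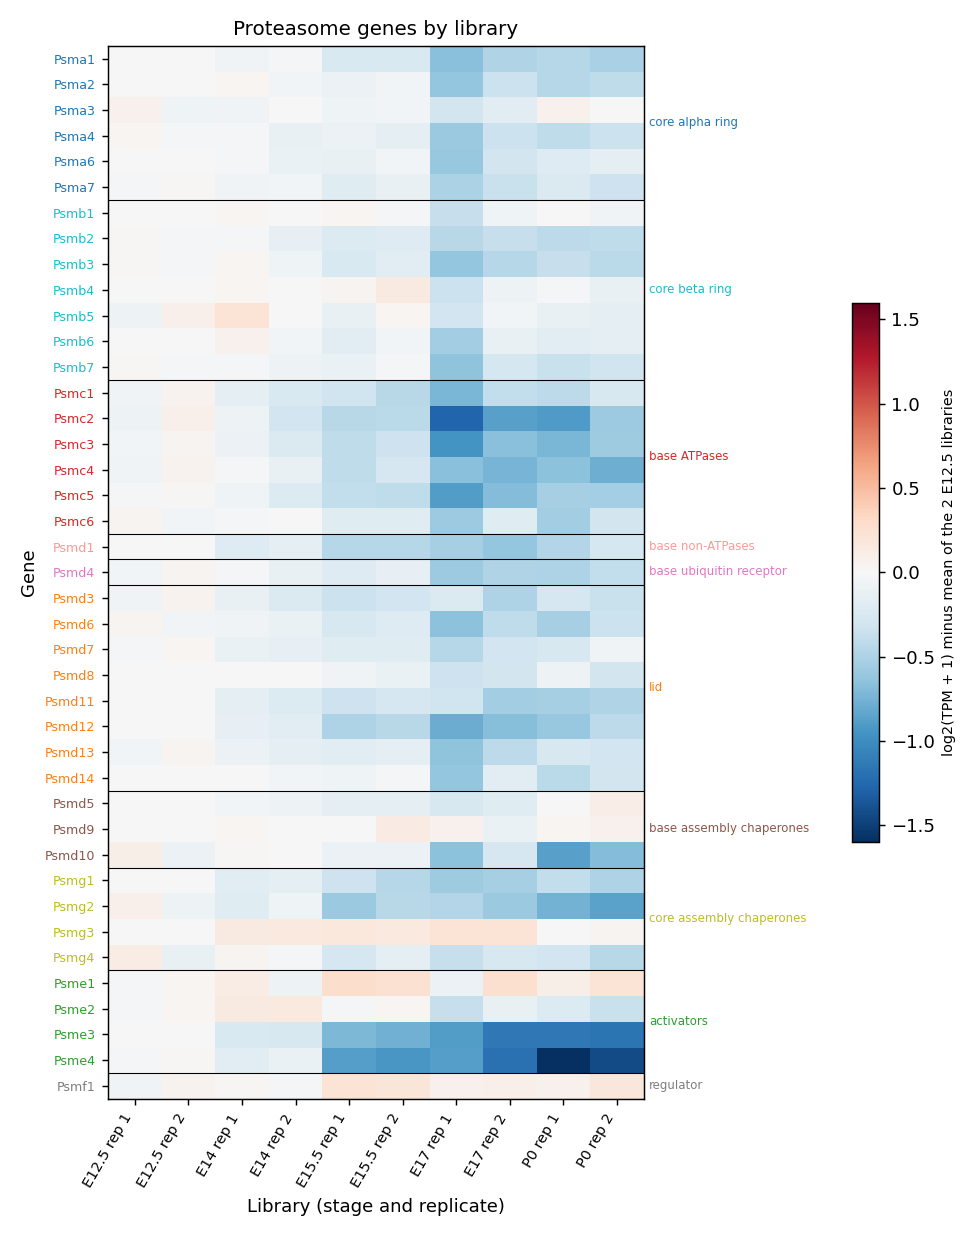
Each row is a proteasome gene, grouped by role, and each column a library; the color is log2(TPM + 1) minus the mean of both E12.5 libraries of that gene. Psme4 and Psme3 are the darkest rows at P0, followed by Psmg2, Psmd10 and Psmc2, E17 replicate 1 is the darkest column for most core genes, and Psmg3, Psme1 and Psmf1 stay near or above their E12.5 level.

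The core genes were the most abundant group, and their median change was smaller than that of the base and lid genes (-0.28 against -0.43). Their median level was 256 TPM for E12.5 and 208 for P0. Of 6 alpha ring genes 4 fell, with a median change of -0.33, and of 7 beta ring genes 3 fell. Together 7 of 13 core genes fell, near the share of all genes called lower, 51.0%. The beta ring median was -0.17, which turned to 0.11 under median-of-ratios scaling and was -0.13 under quantile normalization. Psma1, an alpha ring gene, was at 257 and 255 TPM for E12.5, 246 and 253 for E14, 216 and 217 for E15.5, 160.3 and 182 for E17 and 187 and 178 for P0. The P0 libraries were the lower ones, with no overlap, and the change of -0.49 (SE 0.08, adjusted p 0.000116 in limma) was the largest fall of the alpha ring. It was not called under median-of-ratios scaling (-0.21, adjusted p 0.0757).

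Psma3, another alpha ring gene, was not called, like Psma6 (-0.18, adjusted p 0.109). Psma3 was at 252 and 230.3 TPM for E12.5, 232 and 239 for E14, 229 and 233 for E15.5, 196 and 214 for E17 and 253 and 240.3 for P0. The E12.5 and P0 libraries overlapped, and the change was 0.03 (SE 0.08, adjusted p 0.702). Psma3 was called higher under median-of-ratios scaling (0.31, adjusted p 0.0136 in limma) but not under quantile normalization (0.10, adjusted p 0.277). Psma7, the alpha ring gene with the highest mean, was at 294 and 302 TPM for E12.5, 285 and 289.9 for E14, 261 and 274 for E15.5, 209 and 232 for E17 and 253 and 237 for P0. It fell by 0.28 (SE 0.08, adjusted p 0.0054 in limma), close to the median of all genes.

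In the beta ring, Psmb4 had the highest mean, at 293 and 297 TPM for E12.5, 301 and 296 for E14, 304 and 326 for E15.5, 233 and 278 for E17 and 291 and 272 for P0. Both E17 libraries lay below both E15.5 libraries, replicate 1 by more, and this step was called (-0.30, SE 0.09, adjusted p 0.0296 in limma). The change of Psmb4 from E12.5 to P0 was -0.07 (SE 0.09, adjusted p 0.505). Psmb1 was at 284 and 288 TPM for E12.5, 293 and 286 for E14, 292 and 283 for E15.5, 221 and 273 for E17 and 288 and 274 for P0, with groups that overlapped and a change of -0.03 (SE 0.09, adjusted p 0.802). Psmb2 fell most in this ring, by 0.41 (SE 0.07, adjusted p 0.000208 in limma). It stood at 197 and 192 TPM for E12.5, 191 and 177 for E14, 167 and 168 for E15.5, 143 and 151 for E17 and 145 and 147 for P0, so it was lower by E15.5. Its fall was not called under median-of-ratios scaling (-0.14, adjusted p 0.162).

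Of the catalytic genes, Psmb7 (trypsin-like site) fell by 0.34 (SE 0.10, adjusted p 0.0106 in limma), while Psmb6 (caspase-like site) was at -0.17 (adjusted p 0.217) and Psmb5 (chymotrypsin-like site) at -0.14 (adjusted p 0.277). The call of Psmb7 was lost without E12.5 replicate 1 (adjusted p 0.0564), without P0 replicate 1 (0.0608) and under both other scalings (0.68 and 0.0561). Psmb5 stood apart from the rest of the core by its level. It lay between 55.8 and 80.6 TPM, 0.254 to 0.328 times the core median of the same library, whereas the other 12 core genes lay between 135 and 327 TPM. The annotation holds processed pseudogenes named after Psmb5, Psmb6 and Psmb7, and an exon of Psmb5 shares its strand and position with the microRNA gene Mir686; whether the counting split or lost reads there was not tested.

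**Figure D2:**
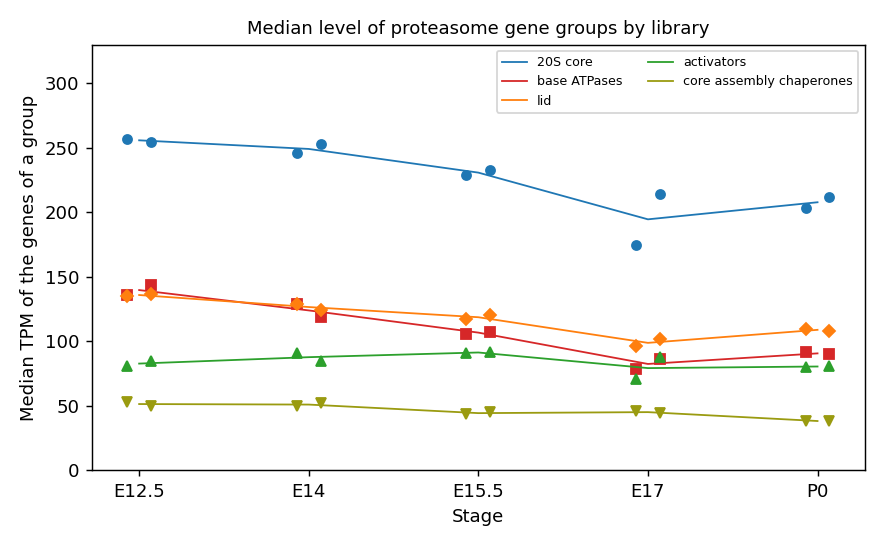
The vertical axis is the median TPM of the genes of a group and the horizontal axis the stage; points are libraries and lines join the means of 2 libraries. The core median is 256 TPM at the first stage and 195 TPM at E17, where replicate 1 lies below replicate 2, and the base ATPases and the lid start near the same level at E12.5 and separate afterwards.

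All 6 base ATPase genes fell from E12.5 to P0, where 51.0% of all genes were called lower. The ATPase median change was -0.60, and it stayed below 0 under median-of-ratios scaling (-0.32) and quantile normalization (-0.48). The 6 genes encode the ring of ATPases that pulls the substrate into the core. Psmc2, on the forward strand of chromosome 5 from 21785283 to 21803787 (GRCm38), fell most. Its levels were 77.9 and 87.9 TPM for E12.5, 78.3 and 66.4 for E14, 60.5 and 60.9 for E15.5, 33.7 and 44.9 for E17 and 43.5 and 54.8 for P0. The stages did not overlap between E12.5 and P0, and the change was -0.75 (SE 0.145, adjusted p 0.00055), a level 0.595 times that of E12.5. Psmc4 was close, at -0.71 (SE 0.08, adjusted p 1.03e-05 in limma), with 140.3 and 153 TPM for E12.5 and 92.9 and 85.1 for P0, and Psmc3 (-0.65) and Psmc5 (-0.54) followed.

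Psmc1 and Psmc6 fell least among the ATPases. Psmc1 was at 141 and 151 TPM for E12.5, 132 and 123 for E14, 117 and 108 for E15.5, 87.8 and 111 for E17 and 109 and 122 for P0, a change of -0.34 (SE 0.11, adjusted p 0.014 in limma). Psmc6, with the highest mean of the 6, was at 157 and 149 TPM for E12.5, 149.7 and 152 for E14, 133 and 134 for E15.5, 102 and 134 for E17 and 104 and 125.02 for P0, a change of -0.42 (SE 0.12, adjusted p 0.00717). Neither was called under median-of-ratios scaling, and both lost the call without P0 replicate 1 (adjusted p 0.112 and 0.092). The call of Psmc1 was also lost under quantile normalization (0.0867) and without E12.5 replicate 2 (0.0937) and that of Psmc6 without E12.5 replicate 1 (0.05).

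The other base genes in the table fell as well. Psmd1, a scaffold of the base, changed by -0.37 (SE 0.09, adjusted p 0.00193 in limma) and Psmd4, which encodes the ubiquitin receptor Rpn10, by -0.44 (SE 0.08, adjusted p 0.000363). Neither was called under median-of-ratios scaling (adjusted p 0.253 and 0.121). Psmd1 shares exon sequence on its strand with the gene model Gm21972, and Psmg3 with Gm26938.

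In the lid, 7 of 8 genes fell, where 51.0% of all genes were called lower. The lid median change was -0.34, and it was -0.06 under median-of-ratios scaling and -0.26 under quantile normalization. Psmd12 and Psmd11 fell most, by -0.51 (SE 0.09) and -0.50 (SE 0.09), and both kept the call under each scaling. Psmd12 had 74.1 and 74.0 TPM for E12.5 and 48.4 and 55.3 for P0. Psmd14, which encodes the deubiquitinase Rpn11 that cuts the chain off the substrate, had the highest mean of all Psmd genes. It was at 206 and 206 TPM for E12.5, 205 and 200.3 for E14, 197 and 203 for E15.5, 134 and 182 for E17 and 153 and 169 for P0. The change was -0.36 (SE 0.12, adjusted p 0.0142 in limma), and the call was lost without either E12.5 library (adjusted p 0.0568 and 0.0584), without P0 replicate 1 (0.112) and under median-of-ratios scaling (0.593). Psmd7, the partner of Psmd14 in the lid, was at -0.15 (adjusted p 0.117).

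The balance of core and cap was also read within each library. The median TPM of the 13 core genes over that of the 16 base and lid genes was 1.98 and 1.87 for E12.5, 1.97 and 2.22 for E14, 2.25 and 2.17 for E15.5, 2.08 and 2.49 for E17 and 2.23 and 2.36 for P0. Both P0 libraries lay above both E12.5 libraries, and the E14 and E17 libraries spread across most of this range. A ratio within a library does not depend on a scaling by a common factor, though quantile normalization can change it. The ratio is given as a description, with no test.

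The assembly chaperones went separate ways. Psmd5, Psmd9 and Psmd10 encode chaperones that hold base ATPases while the base is put together. Psmd10, the oncoprotein gankyrin, on chromosome X from 140948429 to 140956728, was at 40.3 and 35.4 TPM for E12.5, 38.4 and 37.9 for E14, 35.3 and 35.4 for E15.5, 23.6 and 31.3 for E17 and 20.2 and 23.0 for P0. It stayed above 35 TPM up to E15.5 and fell by 0.78 over the whole span (SE 0.13, adjusted p 0.000152 in limma). Psmd5 was at 49.3 and 49.6 TPM for E12.5, 48.1 and 46.6 for E14, 44.6 and 44.1 for E15.5, 41.3 and 43.0 for E17 and 49.3 and 53.1 for P0, with a change of 0.05 (SE 0.08, adjusted p 0.593). Psmd9 lay between 60.5 and 71.3 TPM in all libraries and had a change of 0.05 (SE 0.08, adjusted p 0.622). Psmd5 and Psmd9 were called higher under median-of-ratios scaling (both 0.32, adjusted p 0.00391 and 0.00185 in limma). Quantile normalization also called them higher (0.26 and 0.19, adjusted p 0.0165 and 0.0339).

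Psmg1 and Psmg2 encode a pair of chaperones for the alpha ring, and Psmg3 and Psmg4 another pair that acts with them. Psmg2, on chromosome 18 from 67641599 to 67654162, fell most of the 4. It was at 65.3 and 58.7 TPM for E12.5, 54.1 and 59.2 for E14, 40.9 and 45.2 for E15.5, 44.4 and 40.7 for E17 and 36.2 and 33.8 for P0, a change of -0.81 (SE 0.10, adjusted p 1.15e-05 in limma) with no overlap between E12.5 and P0. Its partner Psmg1 was at 34.9 and 35.4 TPM for E12.5, 30.9 and 31.6 for E14, 27.8 and 25.3 for E15.5, 23.4 and 23.9 for E17 and 26.6 and 24.6 for P0. It fell by 0.45 (SE 0.09, adjusted p 0.000825 in limma), about as far as the median base and lid gene (-0.43), but was not called under median-of-ratios scaling (adjusted p 0.0939) or quantile normalization (0.159).

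The members of the other pair differed in their calls as deposited. Psmg4 was at 73.2 and 62.1 TPM for E12.5, 69.3 and 66.2 for E14, 55.7 and 60.7 for E15.5, 51.8 and 56.5 for E17 and 54.6 and 49.2 for P0. It fell by 0.37 (SE 0.10, adjusted p 0.00497 in limma), a call lost without E12.5 replicate 1 (adjusted p 0.0745) and under both other scalings (0.43 and 0.148). Psmg3 was at 40.8 and 40.5 TPM for E12.5, 44.9 and 45.5 for E14, 45.7 and 45.3 for E15.5, 47.6 and 47.5 for E17 and 40.8 and 41.8 for P0. Its replicates were close at every stage. As deposited, its level returned at P0 to that of E12.5, with a change of 0.02 (SE 0.08, adjusted p 0.791) between them. It was called higher under median-of-ratios scaling (0.29, adjusted p 0.0041 in limma) and quantile normalization (0.27, adjusted p 0.00892).

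**Figure D3:**
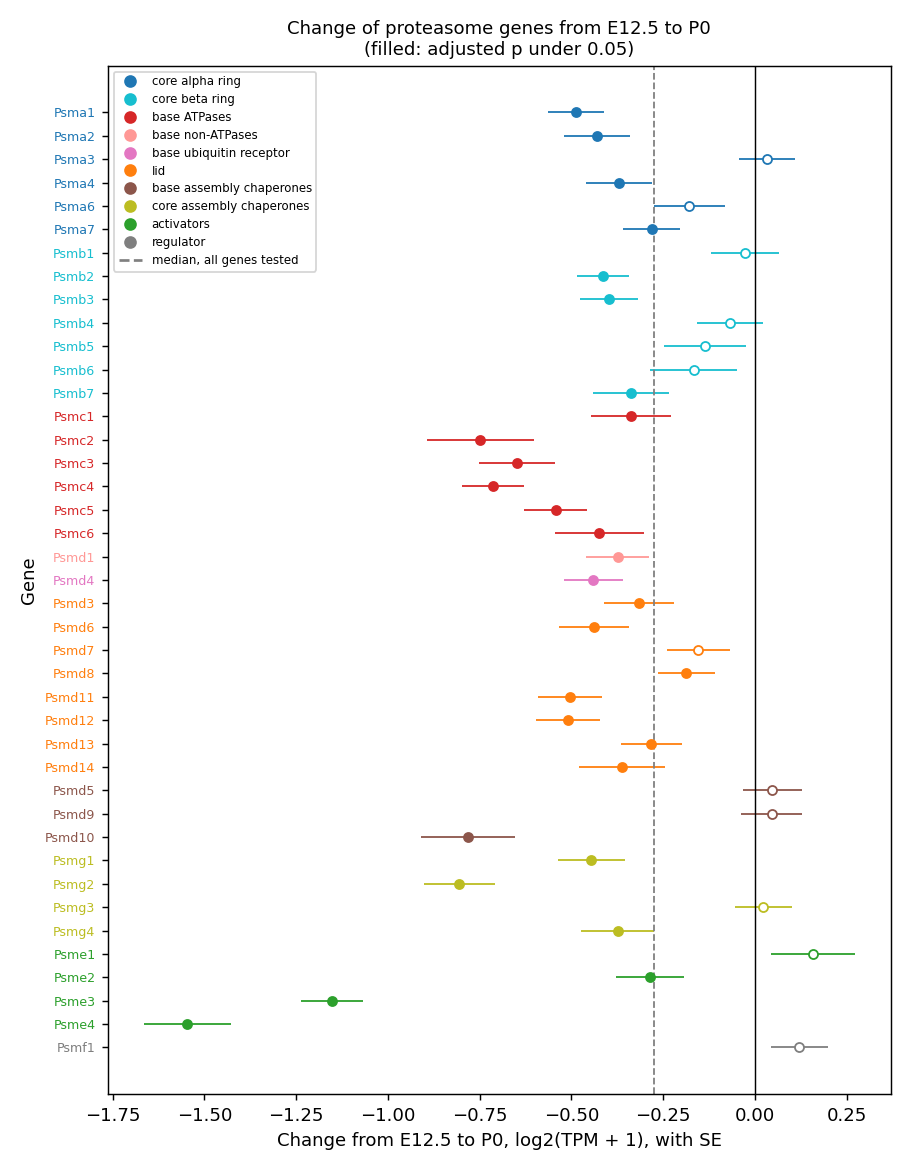
The horizontal axis is the change from E12.5 to P0 on the log2(TPM + 1) scale with its SE, for each gene on the vertical axis; filled points passed limma's threshold and the dashed line is the median of all genes tested. Psme3 and Psme4 lie farthest to the left, all 6 base ATPases lie left of the dashed line, and the 6 genes right of 0 are open points.

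The activators spread from the largest fall of all members to the highest positive value. Psme3, on the forward strand of chromosome 11 from 101316213 to 101323537 (GRCm38), was the most abundant of all 41 genes at E12.5. It was at 346 and 350.0 TPM for E12.5, 293 and 291 for E14, 211 and 203 for E15.5, 187 and 157 for E17 and 157 and 154.8 for P0. Up to E17 each stage lay below the stage before without overlap, and by P0 Psme3 ranked 12 and 13 among the members. The change was -1.15 (SE 0.08, adjusted p 1.57e-07 in limma), a level 0.45 times that of E12.5.

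Psme4, on chromosome 11 from 30771726 to 30880361, was far less abundant. It was at 45.1 and 46.4 TPM for E12.5, 40.2 and 42.3 for E14, 24.3 and 23.6 for E15.5, 24.4 and 19.5 for E17 and 13.8 and 16.3 for P0. The P0 libraries lay below every library of the other stages, and the change of -1.55 (SE 0.12, adjusted p 2.26e-07 in limma) was the largest of the members, a level 0.342 times that of E12.5.

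The cytosolic activators stayed nearer to their first level. Psme1 was at 83.1 and 86.6 TPM for E12.5, 91.9 and 80.0 for E14, 104 and 100.3 for E15.5, 79.1 and 102 for E17 and 90.7 and 99.2 for P0, with a change of 0.16 (SE 0.11, adjusted p 0.217). It was called higher under median-of-ratios scaling (0.43, adjusted p 0.0101 in limma) but not under quantile normalization (0.27, adjusted p 0.0736). Psme2, whose product shares a ring with that of Psme1, was at 78.9 and 82.2 TPM for E12.5, 89.1 and 89.6 for E14, 78.7 and 82.5 for E15.5, 62.2 and 73.9 for E17 and 68.9 and 63.0 for P0. It fell by 0.29 (SE 0.09, adjusted p 0.0139 in limma), near the median of all genes, and lost the call under both other scalings and without E12.5 replicate 2 (adjusted p 0.0843) or P0 replicate 2 (0.0909). The TPM of Psme1 over that of Psme2 was 1.05 in both E12.5 libraries and 1.32 and 1.58 at P0.

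The differences between activators were tested within each library. Of 5 pairs planned, 2 could be formed from the listed genes. Psme3 minus Psme1 on the log2(TPM + 1) scale was 2.02 ± 0.03 for E12.5 (SD, 2 libraries), 1.76 ± 0.13 for E14, 1.01 ± 0.01 for E15.5, 0.93 ± 0.43 for E17 and 0.71 ± 0.11 for P0. Its F statistic was set against that of every other division of the 10 libraries into 5 pairs, an exact permutation test, with p = 0.0243 (adjusted 0.0243 over 2 pairs); the smallest p possible is 0.00106. Psme4 minus Psme1 was -0.88 ± 0.01 for E12.5, -1.04 ± 0.19 for E14, -2.04 ± 0.01 for E15.5, -1.99 ± 0.47 for E17 and -2.58 ± 0.07 for P0, with an exact permutation p = 0.00741 (adjusted 0.0148). From E12.5 to P0 these differences moved by -1.31 and -1.71, so both nuclear activators changed relative to Psme1 by more than the spread between replicates. Psme3 made up 62.6% and 61.9% of the TPM of the 4 activator genes at E12.5 and 47.6% and 46.4% at P0.

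**Figure D4:**
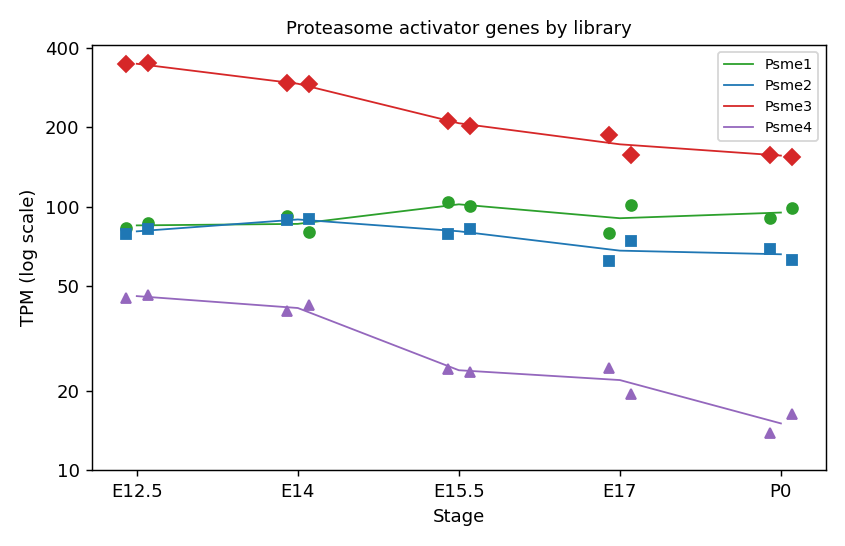
The vertical axis is TPM on a log scale and the horizontal axis the stage; points are libraries and lines join the means of 2 libraries. Psme3 drops from about 348 to 156 TPM and Psme4 from 45.8 to 15.1 TPM, while Psme1 and Psme2 stay between 62.2 and 104 TPM in all libraries.

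The promoters of the activators that fell most and of Psme1, which was not called as deposited, are shown to let their sequences be compared. They are 300 bases long, from 250 before to 50 after the annotated start, from RefSeq on GRCm38.p6, written 5′ to 3′ on the gene's strand. Psme3 is chr11:101315963-101316262 on the forward strand, Psme4 chr11:30771525-30771824 on the forward strand and Psme1 chr14:55578244-55578543 on the forward strand. Capitals mark matches on either strand to TGACNNNGC, the core of the antioxidant response element that Nrf1 and Nrf2, known regulators of proteasome genes, bind, and to CCAAT, the box bound by NF-Y.
Psme3: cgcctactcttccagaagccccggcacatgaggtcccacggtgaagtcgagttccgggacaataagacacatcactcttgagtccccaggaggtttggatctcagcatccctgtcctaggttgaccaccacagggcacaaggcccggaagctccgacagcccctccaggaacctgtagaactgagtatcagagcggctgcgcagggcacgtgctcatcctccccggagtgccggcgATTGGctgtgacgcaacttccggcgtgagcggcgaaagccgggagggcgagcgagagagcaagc
Psme4: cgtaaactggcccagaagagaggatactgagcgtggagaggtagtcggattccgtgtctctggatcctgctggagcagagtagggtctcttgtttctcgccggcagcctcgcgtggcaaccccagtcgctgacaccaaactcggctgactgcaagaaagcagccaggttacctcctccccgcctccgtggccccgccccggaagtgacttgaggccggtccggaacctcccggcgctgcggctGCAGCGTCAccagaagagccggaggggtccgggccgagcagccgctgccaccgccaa
Psme1: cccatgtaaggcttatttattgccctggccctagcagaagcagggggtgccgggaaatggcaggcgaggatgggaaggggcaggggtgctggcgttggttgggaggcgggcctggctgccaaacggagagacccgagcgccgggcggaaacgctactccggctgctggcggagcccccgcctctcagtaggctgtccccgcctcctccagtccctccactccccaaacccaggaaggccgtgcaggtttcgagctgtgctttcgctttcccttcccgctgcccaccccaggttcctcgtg
Psme3 held 1 CCAAT box, on the reverse strand, Psme4 held 1 match to TGACNNNGC, on the reverse strand, and Psme1 held neither. RefSeq windows were found for 34 of 41 members, 37 windows in all. TGACNNNGC was in 16.2% of these and in 12.4% of all 32851 windows, and CCAAT in 32.4% against 37.4%, so the shares were near those of all promoters. The matching genes for TGACNNNGC were Psmb5, Psmb6, Psmc6, Psmd9, Psmd12 and Psme4, of which Psmc6, Psmd12 and Psme4 fell and the others were not called. A match is a description of letters in this window only; Psmb1, Psmb2, Psmb7, Psmc3, Psmd3, Psmd7 and Psmg2 were not matched.

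Psmf1 encodes PI31, which inhibits the core in the test tube and serves its transport in axons. It was at 60.3 and 65.5 TPM for E12.5, 63.5 and 62.2 for E14, 73.1 and 71.9 for E15.5, 65.6 and 66.3 for E17 and 65.8 and 71.1 for P0. The levels stayed in a narrow range, and the change of 0.12 (SE 0.08, adjusted p 0.176) was not called as deposited. It was called higher under median-of-ratios scaling (0.39, adjusted p 0.000696) and quantile normalization (0.26, adjusted p 0.00929).

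The 4 steps between neighboring stages showed when the groups moved. From E12.5 to E14, limma called 0 of 41 members, where it called 8.73% of all 6048 genes. At an unadjusted p under 0.05 there was 1 member, Psme3, and there were 1486 of 6048 genes. The median change was -0.06, as for all genes (-0.06). Of the 16 base and lid genes, none of them called, all had negative values, as did 3762 of 6048 genes, with a median of -0.13, and the 13 core genes had a median of -0.03. With array weights 10 members were called, where 39.9% of all genes were, and without E17 replicate 1 or replicate 2 it was 2, where 29.3% and 29.2% of all genes were.

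From E14 to E15.5, 8 members fell and 0 rose, where 33.3% of all genes were called lower and 18.4% higher. An unadjusted p under 0.05 was found for 11 of 41 members and 3465 of 6048 genes. Those that fell were Psme4 (-0.76), Psme3 (-0.50), Psmg2 (-0.39), Psmd12 (-0.32), Psmd1 (-0.28), Psmc4 (-0.26), Psmc5 (-0.26) and Psma1 (-0.20). Psme4 took the largest part of its fall here, from 41.2 to 23.9 TPM (SE 0.12, adjusted p 0.000263), and Psme3 went from 292 to 207 TPM (SE 0.08, adjusted p 0.000508). The median of the members, -0.12, was near that of all genes, -0.13. The erythroid, meningeal and choroid plexus genes dropped at the same step, Ttr from between 1379 and 1491 TPM to between 3.43 and 4.13 TPM; their part in these changes was not tested. The count ranged from 2 without E15.5 replicate 1 to 16 without either E17 library. It was 3 and 4 without E14 replicate 1 and replicate 2, 5 without E15.5 replicate 2, and 24 with array weights, where 76.1% of all genes were called. Median-of-ratios scaling gave 3 falls and 2 rises, where 25.7% of all genes fell and 26.1% rose, and quantile normalization 5 falls and 1 rise, against 26.9% and 25.9%.

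From E15.5 to E17 the members and the rest of the table parted. Here 18 members fell and 0 rose, where 10.6% of all genes were called lower and 14.4% higher. The median change of the members was -0.23 against 0.01 for all genes. Negative values were found for 40 of 41 members and 2901 of 6048 genes. Of the 29 structural genes of core, base and lid, all 29 had negative values and 17 fell: 5 of 6 alpha ring genes, 3 of 7 beta ring genes, 4 of 6 base ATPases, 4 of 8 lid genes and Psmd4. Psmc2 fell most (-0.63, SE 0.145, adjusted p 0.0106 in limma), then Psmc3 (-0.45), Psma2 (-0.42), Psmb7 (-0.39) and Psmc5 (-0.39). Of the activators, chaperones and Psmf1, Psme3 was called (-0.27, SE 0.08, adjusted p 0.0381), while Psmd10 had a larger value that missed the threshold (-0.37, SE 0.13, adjusted p 0.0566) and Psme2 was at -0.25 (adjusted p 0.0732). The count of members changed little with the scaling at this step. Median-of-ratios scaling gave 15 falls, all among the 18, where 12.4% of all genes fell. Quantile normalization gave 18 falls, 17 of them shared, where 16.1% of all genes fell.

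Since the E17 libraries differed, each was set against the E15.5 mean on its own. In replicate 1, 37 of 41 members lay below it, with a median of -0.35, where 39.7% of all genes lay below and their median was 0.09. In replicate 2, 38 members lay below, with a median of -0.17, where 59.3% of all genes lay below and their median was -0.05. The direction of the median was the same in both libraries and its size differed. Without replicate 1, 14 members fell, 12 of them among the 18, where 17.5% of all genes were called lower; without replicate 2, 29 fell, against 17.3%. Without E15.5 replicate 1, 1 member fell, where 2.69% of all genes were called lower, and without replicate 2, 0 fell, against 3.21%. With array weights, which give the E17 libraries little weight, 4 fell, against 4.2%. The median of the members was -0.24 without either E15.5 library.

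**Figure D5:**
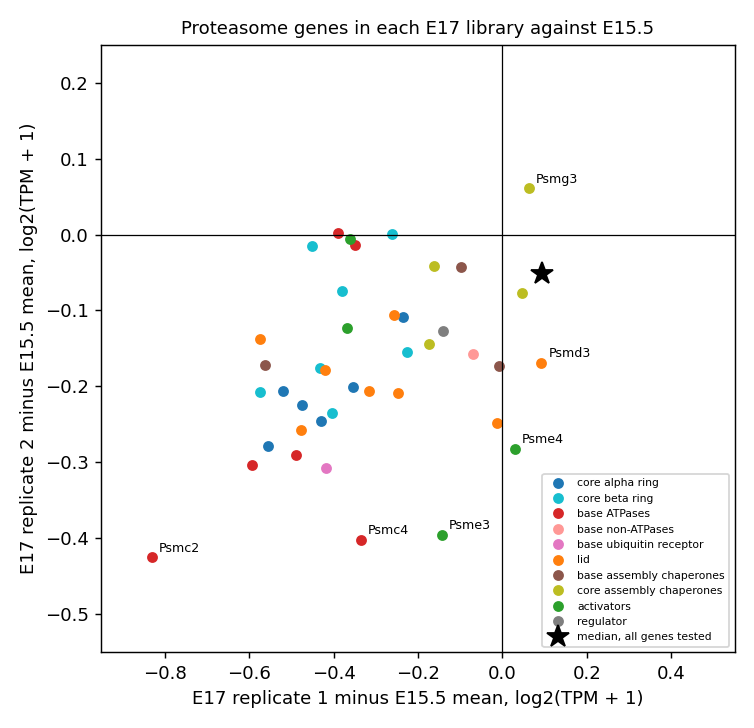
Each point is a proteasome gene, with its difference from the E15.5 mean in E17 replicate 1 on the horizontal axis and in E17 replicate 2 on the vertical axis, both in log2(TPM + 1); the star is the median of all genes tested. Most members lie below 0 on both axes, 35 of 41, where 2026 of 6048 genes tested do so, and lie farther from 0 in replicate 1. Psmc2 is the farthest out at -0.83 and -0.425, and Psmg3 alone is above 0 in both.

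From E17 to P0, 5 members rose and 2 fell, where 12.9% of all genes were called higher and 28.8% lower. The share that rose was near that of all genes, and the share that fell was below it. Psmd5 (0.27), Psma3 (0.27), Psma6 (0.27), Psmd13 (0.25) and Psmc5 (0.25) rose, with adjusted p between 0.018 and 0.045 in limma, and Psme4 (-0.51, adjusted p 0.00599) and Psmg2 (-0.27, adjusted p 0.0415) fell. The median of the members was 0.09 against -0.10 for all genes, and without E17 replicate 1 it was 0.02 against -0.04. Without E17 replicate 2 the median of the members was 0.19 against -0.18 for all genes, so its size depended on the library. Under median-of-ratios scaling 9 rose and 1 fell, where 21.4% of all genes rose and 22.6% fell. The count of 7 was 3 or 4 without any 1 library of E12.5, E14, E15.5 or P0. Both E17 libraries lay below both E15.5 and both P0 libraries in 13 members, 11 of them structural, where 5.59% of all genes did so; this count was chosen after the values were seen.

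Other genes of the pathway were counted from a list of proteasome cofactors, shuttle factors and ubiquitin genes. Of 29 in the table, 15 fell from E12.5 to P0, 5 rose and 9 were not called, with a median of -0.26. Of all genes 51.0% fell and 27.1% rose, with a median of -0.27, so the share that fell and the median were near those of the whole table. Pomp, the chaperone that completes the core, averaged 262 TPM for E12.5 and 259 for P0 (-0.02, adjusted p 0.901). The deubiquitinases of the cap differed: Uchl5 fell from 47.4 to 31.9 TPM (-0.55, SE 0.09, adjusted p 0.00011) and Usp14 rose from 64.9 to 75.9 TPM (0.22, SE 0.08, adjusted p 0.0278). Ddi2, the protease that releases the transcription factor Nrf1, had the largest fall (-1.32, SE 0.145, adjusted p 5.16e-06), with 38.1 and 38.1 TPM for E12.5 and 13.7 and 15.6 for P0. Tppp3 had the largest rise (1.56), though it is known as a tubulin-binding protein. From E15.5 to E17, 3 of the 29 fell, Vcp (-0.37), Txnl1 (-0.29) and Nsfl1c (-0.27), and Tppp3 rose, where 10.6% of all genes were called lower, so the share that fell was near that of all genes. As background, Vcp is the ATPase that extracts tagged proteins for the proteasome, with Nsfl1c as a cofactor, and Txnl1 is a thioredoxin bound to the cap. Adrm1, Sem1 and Nfe2l1 are not analysed here.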

How the data were processed

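Per the labels' protocols, frozen neocortex was pulverized in a detergent buffer, the lysate was cleared, RNA was taken up in TRIzol LS, and libraries came from a stranded kit for mRNA, TruSeq. The submitters' processing notes name STAR, Subread and GRCm38.p5, with no role; annotation, gene lengths and the choice of the listed rows were not stated. The authors deposited TPM, with library columns per the file headers; the listed genes sum to between 68.9% and 71.7% of all TPM. TPM keep no read depth, so no count model was used and no counting interval can be given.

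Columns were assigned by title, with 0 left over, and stages by label. P-values rest on the spread between the 2 libraries of a stage. In limma that spread was pooled over the 5 stages for each gene, so a p-value does not measure that of its own stages. The SD across genes of the difference between replicates was 0.285 at E17, 0.176 at P0 and between 0.088 and 0.108 at the other stages. For 6048 genes averaging 1 TPM or more, log2(TPM + 1), a scale that understates changes of low genes, was fitted in limma 3.58.1 (R version 4.3.3) as 5 stage means from all 10 libraries (5 residual degrees of freedom, variance trend), Benjamini-Hochberg adjustment and a threshold of 0.05. The median SE of a difference was 0.107. The fit was tested on simulated data in which the spread of a gene was the same at all stages. That setting does not cover the wider spread at E17, so it does not bear on the calls there. Figures were drawn with matplotlib 3.10.9 in Python 3.11.15. Coordinates come from GENCODE M21.

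The members, the pathway and marker lists and the tests were chosen with earlier results of these data known. Named with values in every library were, per gene class, the members of highest and lowest change and highest mean, all Psme and Psmg genes and Psmf1. Of the pathway list, the extremes of change and Adrm1, Sem1, Pomp, Uchl5, Usp14 and Nfe2l1 were named. Other genes are named where a result turns on them. Some marker genes of the lists are not reported here. The alternatives tried were 2 other pseudocounts (0.1 and 10 TPM), dropping the filter, raising it to 5 TPM, median-of-ratios scaling, quantile normalization, array weights, a replicate block and each library left out.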

Additional observations from a re-analysis of the deposited data

How the results depend on the processing

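The count of members called between E12.5 and P0, 29, was 16 under median-of-ratios scaling and between 23 and 31 without any single library; the F test over the 5 stages, which called 33, called between 28 and 39 without single libraries and 24 under median-of-ratios scaling. From E12.5 to E14 the count of 0 became 1 under quantile normalization, 10 with array weights and between 0 and 2 without single libraries. From E14 to E15.5 the count of 8 became 5 under median-of-ratios scaling, 24 with array weights and between 2 and 16 without single libraries. From E15.5 to E17 the count of 18 became 4 with array weights and between 0 and 29 without single libraries. From E17 to P0 the count of 7 became 1 with array weights and between 3 and 26 without single libraries. Why these counts moved with array weights or with a scaling was not tested. Quantile normalization did not shift all genes alike. Under it the change from E12.5 to P0 went from -1.15 to -1.14 for Psme3 and from -0.45 to -0.16 for Psmg1. Without single libraries, the change of Psme3 relative to Psme1 lay between -1.39 and -1.23 and that of Psme4 relative to Psme1 between -1.76 and -1.66. Both exact permutation tests stayed on their side of the threshold under 4 alternatives.

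Of 738 recomputed changes of single members between E12.5 and P0, over 18 alternatives, 661 kept their direction and side of the threshold, 48 lost the call, 16 gained it and 13 changed sign. Signs changed under median-of-ratios scaling for Psma6 (0.10), Psmb1 (0.25), Psmb4 (0.21), Psmb5 (0.14), Psmb6 (0.11), Psmd7 (0.12) and Psmd8 (0.0886), and under quantile normalization for Psmb1 (0.0226) and Psmb5 (0.0167). They also changed for Psma3 without E12.5 replicate 2 (-0.0305) or P0 replicate 1 (-0.0025), and without P0 replicate 2 for Psmb1 (0.0085, and -0.062 without P0 replicate 1) and Psmd5 (-0.005). Psmd8, whose adjusted p was 0.0467, was called under 9 of 19 settings.

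With the replicate number as a block, 28 members were called between E12.5 and P0 (Psmd8 lost its call, adjusted p 0.0578), 0 for E14 against E12.5, 7 for the next step, 17 for E17 against E15.5, 6 for P0 against E17 and 31 over the 5 stages. Of all genes, 77.3%, 7.64%, 49.7%, 23.3% and 39.2% were called in these comparisons between stages, in the same order. The differences between replicates correlated between stages from -0.375 to 0.107. Whether the replicate numbers pair libraries across stages cannot be told from these values.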
